A study of Homo sapiens with 36 samples.

Results

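The cytosolic ribosome is built from ribosomal RNA and a set of ribosomal proteins, which belong to the small (40S) or the large (60S) subunit and are named RPS or RPL accordingly. Their mRNAs are among the most abundant of growing cells and many begin with a C followed by a run of pyrimidines, the 5′ terminal oligopyrimidine (TOP) tract through which mTOR and LARP1 control their translation. A few have retrogene or duplicated paralogs that are expressed at low levels, such as RPS27L and RPL22L1, and some proteins act outside the ribosome, as RPL5 and RPL11 do when they bind MDM2 together with 5S rRNA.

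The genes described here were protein-coding genes whose symbol was RPL or RPS followed by digits and an optional A, X, L or L1, together with RPLP0, RPLP1, RPLP2, RPSA and FAU, and with no Y-linked gene. The pattern matched 83 of the 59041 annotated genes with a transcript listed in the deposited files, with or without reads. Of the 59041 genes, 19634 were protein-coding. They were divided into 76 core genes, 31 of the small and 45 of the large subunit, and 7 paralogs, namely RPS27L, RPL7L1, RPL22L1, RPL26L1, RPL39L, RPL3L and RPL10L. The rule uses symbols alone.

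Bulk RNA was sequenced from 3 acute myeloid leukemia lines, HL60, MOLM13 and OCIAML3, each exposed for 24 h to DMSO, to cytarabine at 0.1 µM, to daunorubicin at 0.02 µM or to both drugs at those doses (combination), with 3 biological replicates for each of the 12 groups. Cytarabine, a nucleoside analogue, blocks DNA synthesis. Daunorubicin, of the anthracycline class, binds between DNA base pairs and traps topoisomerase II on broken DNA. HL60 and MOLM13 were grown in RPMI with 10% fetal bovine serum and OCIAML3 in alpha-MEM with 20%, so that line and medium cannot be told apart in comparisons with OCIAML3. Each line is a single established culture from a cell bank. As background, MOLM13 carries a KMT2A fusion and an internal tandem duplication of FLT3, and OCIAML3 carries an NPM1 mutation. The replicates were labelled biological, without further detail, and the p-values measure the spread between them.

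The libraries held 25067734 to 47322144 estimated read counts (median 32194478). Of 8 myeloid markers, all 8 were at 1 TPM (transcripts scaled to a common total after division by length) or more in DMSO in each line. The summed level of 7 erythroid markers stayed between 0 and 3.05 TPM and that of 6 stromal markers between 0.173 and 3.45 TPM in all 36 libraries. The summed level of 8 lymphoid markers was 2.84 to 3.37 TPM in HL60 DMSO and reached 17.6 TPM in treated HL60. In these bulk samples, fewer cells of a kind and less RNA per cell cannot be told apart. By a viability assay the authors reported cell death in MOLM13 with each treatment, and the lowest response to daunorubicin in HL60. RNA of dying and living cells was not separated here. In OCIAML3, the libraries labelled cytarabine replicate 3 and combination replicate 3 stood apart from their groups. CDKN1A, the cell cycle inhibitor p21, was at 110.0, 102 and 378 CPM (counts scaled to a common total) in the cytarabine libraries and at 1389, 1082 and 84.3 CPM in the combination libraries, against 105, 90.6 and 78.5 CPM in DMSO. The last value of each treated set is that library, one between the rest of its group and the other combination libraries and the other within the DMSO range. Whether the labels of these libraries were exchanged was not tested. OCIAML3 results are given with all 12 libraries and without these 2. Daunorubicin replicate 3 was kept in both. It had 391 CPM of CDKN1A, against 1260 and 931 CPM in the other daunorubicin libraries.

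The first bases of the transcripts are shown because most core genes share a TOP tract there that the rule for choosing them did not use. Each window is 30 bases of GRCh38.p14 from RefSeq, 15 before the annotated start and 15 from it, 5′ to 3′ on the gene's strand. Capitals mark the unbroken run of C and T from the start where the first base is C and at least 4 pyrimidines follow, and otherwise the first base alone.
RPS19: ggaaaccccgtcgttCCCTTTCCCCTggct
RPL13A: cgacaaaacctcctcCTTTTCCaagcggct
RPL28: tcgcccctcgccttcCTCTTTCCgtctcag
RPL12: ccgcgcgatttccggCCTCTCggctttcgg
RPS6: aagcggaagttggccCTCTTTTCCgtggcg
RPL22L1: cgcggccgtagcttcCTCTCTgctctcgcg
RPS26: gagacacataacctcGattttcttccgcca
RPS27L: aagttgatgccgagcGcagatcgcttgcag
RPL7L1: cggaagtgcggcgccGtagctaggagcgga
RPL26L1: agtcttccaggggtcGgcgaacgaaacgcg
The windows lie at chr19:41860240-41860269 for RPS19, chr19:49487593-49487622 for RPL13A, chr19:55385917-55385946 for RPL28, chr12:56041903-56041932 for RPS26, chr6:42879601-42879630 for RPL7L1 and chr5:172958714-172958743 for RPL26L1, all on the plus strand. Those on the minus strand lie at chr9:127451392-127451421 for RPL12, chr9:19380222-19380251 for RPS6, chr3:170870181-170870210 for RPL22L1 and chr15:63157463-63157492 for RPS27L.

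A start of C followed by at least 4 pyrimidines was annotated for 41 of the 61 core genes with an entry in the RefSeq promoter table (67.2%), against 4.04% of the 27305 genes with an entry of the same length. Among the paralogs with an entry it was found for RPL22L1 alone, 1 of 5, and among genes of the mitochondrial ribosome for 5 of 69 (7.25%). RPS26, the core gene with the largest falls below, had a G as its annotated first base, followed within a few bases by a run of pyrimidines, so the outcome of this search rests on the exact annotated start. Of all 66 members with an entry, 22 (33.3%) held CCGGAAG or its reverse complement CTTCCGG, the core of sites bound by ETS family factors, in the 300 bases from 250 before the start, against 10.7% of all entries. TATAAA or TTTATA was found in 6 of 66 (9.09%), against 11.95% of all entries. These matches are descriptions of the sequence and were not tested for use by any factor.

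In DMSO the core genes were expressed at a median of 3058 TPM in HL60, 2748 TPM in MOLM13 and 2333 TPM in OCIAML3, a scale that takes transcript length into account. RPS27, a zinc-binding protein of the small subunit, had the highest level in HL60 (9531 ± 1763 TPM, mean ± SD, n = 3) and OCIAML3 (10985 ± 592 TPM), and RPS18 had it in MOLM13 (8497 ± 564 TPM). The spread did not separate these from their neighbours in HL60, where RPS18 was at 9201 ± 808 TPM, or in MOLM13, where RPS29 was at 8012 ± 177 TPM. The paralogs lay below the core medians. RPL7L1, a nucleolar assembly factor related to RPL7, was at 149 ± 3.49, 161 ± 6.24 and 131 ± 4.45 TPM in HL60, MOLM13 and OCIAML3. RPS27L was at 67.4 ± 11.2, 269 ± 55.6 and 271 ± 0.373 TPM, and RPL22L1 at 71.9 ± 8.28, 346 ± 19.1 and 136 ± 11.9 TPM. RPL3L, the muscle paralog of RPL3, and RPL10L, the testis paralog of RPL10, stayed at or near 0 in DMSO, with means of at most 0.0627 TPM, and did not pass the filter on low counts in any line.

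Core genes differed between the lines in DMSO. Tested with edgeR over 19053 genes in all 36 libraries, at a false discovery rate (FDR) under 0.05, 64 of 76 core genes were lower and 2 higher in OCIAML3 than in HL60, with a median log2 difference of -0.77. Of all genes tested, 28.1% were lower and 34.4% higher, with a median of 0.08. Against MOLM13, 70 core genes were lower in OCIAML3 and 1, RPL37, was higher, with a median of -0.60, while 28.1% of all genes were lower and 26.9% higher. MOLM13 and HL60 differed in both directions, with 19 core genes higher and 33 lower in MOLM13, against 30.3% and 22.7% of all genes. The balance moved with single libraries. It was 22 core genes higher and 23 lower without HL60 DMSO replicate 1, and 13 and 38 without HL60 DMSO replicate 2.

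RPL9, RPL7 and RPS28 were among the genes with the widest differences. RPL9, a protein of the large subunit, was at 217, 201 and 219 TPM in the 3 HL60 DMSO libraries, 1364, 1438 and 1452 TPM in MOLM13 and 131, 150.1 and 160.4 TPM in OCIAML3, so that every MOLM13 library lay above all others. The log2 difference between OCIAML3 and MOLM13 was -3.33 ± 0.14, adjusted p = 3.17e-18. RPL7 was at 1626, 1338 and 1439 TPM in HL60, 6054, 5769 and 6201 TPM in MOLM13 and 3279.7, 3174 and 3214 TPM in OCIAML3, with no overlap between the lines. RPS28 was at 868, 828 and 935 TPM in HL60, 2417, 2444 and 2468 TPM in MOLM13 and 785, 719 and 735 TPM in OCIAML3. On transcripts annotated as retained introns lay 37.7% ± 7.003 of the RPL9 counts of HL60 and 41.2% ± 1.29 of those of OCIAML3, against 4.22% ± 0.436 in MOLM13 (SD, n = 3). The genome was a decoy in the authors' quantification, which drops reads that fit another locus better. Pseudogenes named after these genes number 60 for RPL7, 17 for RPL9 and 4 for RPS28. Their share of the counts of gene and copies together was highest for RPL9 in HL60, at 0.615%. Whether the loss of reads to the decoy moved with the line was not tested.

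**Figure D1:**
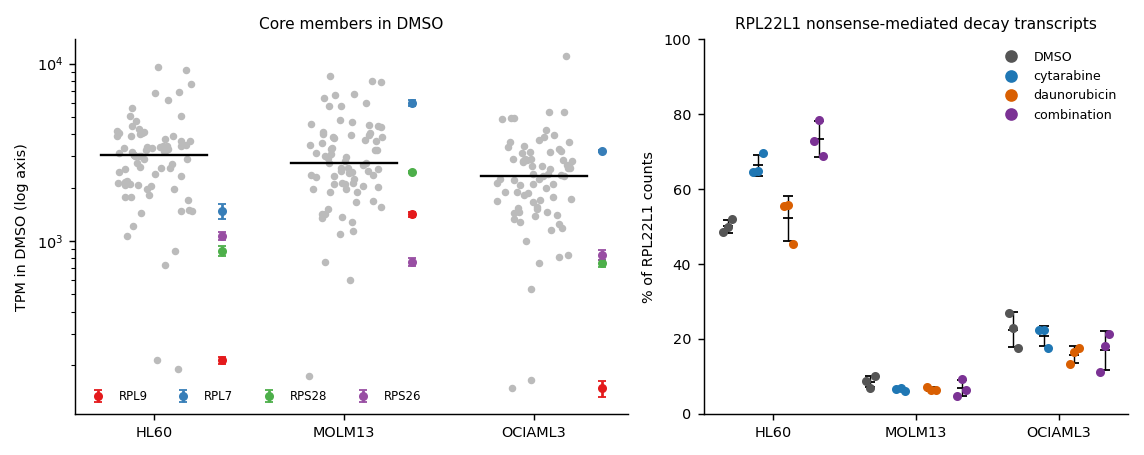
Left, mean TPM of each of the 76 core genes in the DMSO libraries of each line on a log axis (grey points, horizontal bar at the median), with RPL9, RPL7, RPS28 and RPS26 drawn beside them as mean and SD of 3 libraries. Right, the percentage of RPL22L1 counts on transcripts annotated for nonsense-mediated decay in each library (points) with the mean and SD, where every HL60 library lies above every library of the other lines.

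The core genes together took 9.90%, 7.91% and 8.89% of the gene-level counts in the HL60 DMSO libraries, 8.32%, 8.95% and 8.87% in MOLM13 and 5.87%, 5.91% and 5.92% in OCIAML3. In MOLM13 the share was 11.2%, 11.5% and 10.8% with daunorubicin and 10.5%, 11.5% and 11.03% with the combination, and every one of these libraries lay above every DMSO library. In HL60 it was 8.90% ± 0.996 in DMSO, 9.15% ± 0.735 with cytarabine, 9.91% ± 0.359 after daunorubicin and 9.19% ± 0.879 after the combination (mean ± SD, n = 3), and the treated libraries overlapped the DMSO libraries in each case. Taken by replicate number, each HL60 library with daunorubicin, at 10.3%, 9.55% and 9.93%, lay above its DMSO counterpart. So did each with the combination, at 10.2%, 8.44% and 8.98%. With cytarabine, replicate 1 lay below its counterpart, at 9.77%, and the others above, at 8.33% and 9.34%. In OCIAML3 it stayed between 5.22% and 6.07% in all 12 libraries. The paralogs took at most 0.0791% in any library. Their share in HL60 was 0.0612%, 0.0567% and 0.0565% in DMSO and 0.0307%, 0.0286% and 0.0316% with the combination, without overlap. The counts from the mitochondrial genome, which are part of the denominator, moved over the same comparison, from 4.88% ± 0.418 to 6.70% ± 0.918 in HL60 and from 4.95% ± 0.0990 to 6.32% ± 0.416 in MOLM13. Of counts without that genome the core share of MOLM13 was 9.17% ± 0.355 in DMSO and 11.8% ± 0.525 with the combination, as large a difference.

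**Figure D2:**
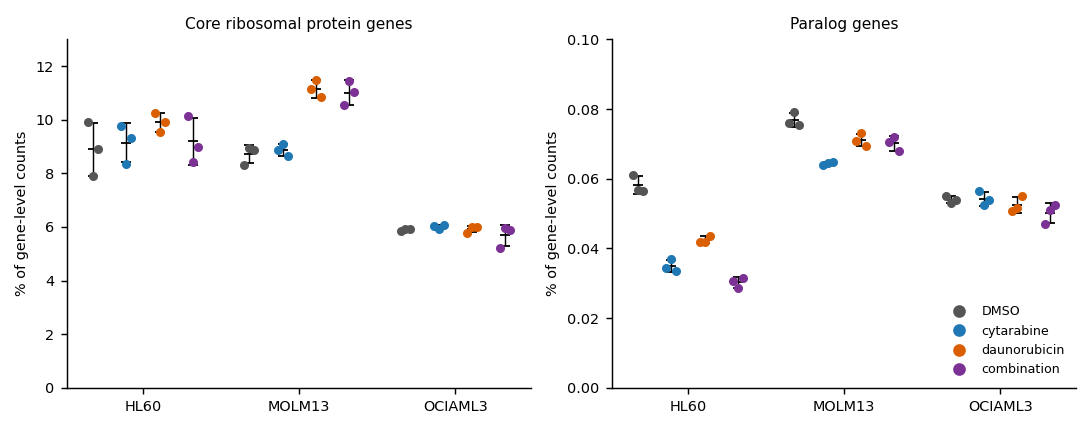
Percentage of gene-level counts taken by the 76 core genes (left) and the 7 paralogs (right) in each of the 36 libraries, with the mean and SD of 3 libraries per group. The MOLM13 libraries with daunorubicin or the combination lie above 10.5% for the core, and the paralog share of treated HL60 lies below that of DMSO.

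In HL60, the core genes called with cytarabine and with the combination were all lower, and daunorubicin raised 1. The number lowered depended on whether the fit held the replicate number as a block. These calls follow edgeR's scaling between libraries. As a share of gene-level counts the core was not lower on average. It took 8.90% in DMSO, 9.15% with cytarabine and 9.19% with the combination. All tests within a line used edgeR on its 12 libraries, without the block unless it is named, with the 3 treatments sharing the DMSO libraries. With cytarabine, 13 of 76 core genes were lower and 0 higher, with a median log2 fold change of -0.19, against 22% lower and 23.6% higher of all 15608 genes (median 0.01). As a share of the core this is 17.1%, below the share of all genes that fell. With the combination, 23 were lower and 0 higher (median -0.21), against 25.3% and 28.1% of all genes, so the share that fell, 30.3%, was near that of all genes. With daunorubicin, RPL3 alone rose and none fell (median 0.07), against 12.8% higher and 9.14% lower of all genes. RPL3, which lies near the peptidyl transferase center, was at 2746, 2442 and 2630.1 CPM in DMSO and 3006, 3215 and 3139 CPM with daunorubicin (log2 fold change 0.26 ± 0.09, adjusted p = 0.0464, where ± is the standard error), and the call was lost when any of 10 of the 12 libraries was left out and under 4 other settings.

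The count of falls in HL60 moved with single libraries and with the fit. With cytarabine it was 6 core genes without DMSO replicate 1, 7 without DMSO replicate 3, 8 without cytarabine replicate 2 or combination replicate 3, and 24 without DMSO replicate 2. With the combination it was 9 without DMSO replicate 1, 9 without combination replicate 2, 14 without combination replicate 3 or DMSO replicate 3, and 36 without DMSO replicate 2. Same-numbered HL60 libraries deviated together in all 6 pairs of groups, and with the replicate number as a block 39 core genes fell with cytarabine and 42 with the combination, with none higher, against 28.5% and 30.5% of all genes lower in the same fit. With upper quartile scaling, which put the median of all genes at 0.13 and 0.19, 2 and 7 core genes fell, against 16.3% and 19.8% of all genes.

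The core genes with the 3 largest falls in HL60 were RPS26, RPL9 and RPL5 for both cytarabine and the combination. RPS26, a small-subunit protein at the mRNA exit channel that is mutated in some cases of Diamond-Blackfan anemia, was at 475, 387 and 461 CPM in DMSO, 220.1, 188 and 249 CPM with cytarabine and 227, 156 and 212 CPM with the combination. All treated libraries lay below all DMSO libraries, with a log2 fold change -1.01 ± 0.15, adjusted p = 0.000177 for cytarabine and a log2 fold change -1.15 ± 0.15, adjusted p = 3.75e-05 for the combination. It was the only core gene in any line that passed FDR under 0.05 with a change of more than 2-fold against DMSO, a rule that called 16.9%, 7.3% and 23.3% of all genes in HL60 and 8.13%, 17% and 17.4% in MOLM13 in the order cytarabine, daunorubicin and combination. With daunorubicin it was at 335, 333 and 417 CPM, which overlapped DMSO (adjusted p = 0.197). RPL5, which carries 5S rRNA into the ribosome, was at 1783, 1427 and 1550.0 CPM in DMSO, 1194, 1138 and 1150.3 CPM with cytarabine (log2 fold change -0.45 ± 0.10, adjusted p = 0.00251) and 1147, 994 and 999 CPM with the combination (log2 fold change -0.60 ± 0.10, adjusted p = 0.000226). RPL9 was at 138, 115 and 136 CPM in DMSO and 93.7, 63.7 and 92.0 CPM with the combination (log2 fold change -0.64 ± 0.16, adjusted p = 0.00356). The HL60 counts of RPL9 are those with the large share on retained-intron transcripts, and that share was 37.7% ± 7.003 in DMSO and 20.7% ± 3.15 with the combination, a difference whose part in the fall was not tested.

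In MOLM13, daunorubicin and the combination raised most core genes. Cytarabine lowered 18 core genes and raised 0, with a median log2 fold change of -0.09, against 17.8% lower and 17.1% higher of 16184 genes, so that the fallen share of the core, 23.7%, was not far from that of all genes. Daunorubicin raised 57 of 76 and lowered 1, with a median of 0.27, against 26.9% higher and 25.7% lower of all genes (median 0.07). The combination raised 50 and lowered 1, with a median of 0.24, against 27% and 26% of all genes. The rises covered both subunits, with 20 of 31 small-subunit and 37 of 45 large-subunit genes higher with daunorubicin, and 18 and 32 with the combination. They were small, at most 0.60 on the log2 scale, and none passed 2-fold. With TMM factors computed without the ribosomal protein genes, 55 and 46 core genes rose, against 25.9% and 26.2% of all genes, and with upper quartile scaling, which put the median of all genes at 0.20 and 0.22, 70 and 69 rose, against 33.9% and 34.8%. The cytarabine count was less stable. It was 11 without cytarabine replicate 1, 6 without cytarabine replicate 3 and 9 without DMSO replicate 3, and with upper quartile scaling it was 1 higher and 3 lower, against 20.5% and 13.8% of all genes.

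**Figure D3:**
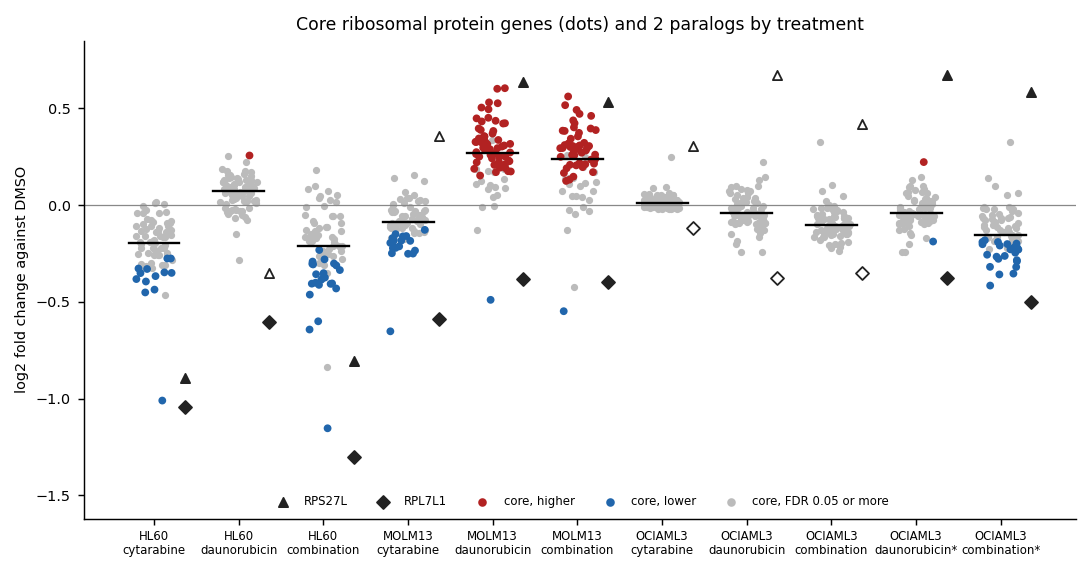
Log2 fold change of each core gene (dots, bar at the median) against DMSO in each comparison, red or blue at FDR under 0.05, with RPS27L (triangles) and RPL7L1 (diamonds) filled where FDR is under 0.05. Columns with an asterisk leave out the OCIAML3 libraries labelled cytarabine replicate 3 and combination replicate 3. Most MOLM13 dots with daunorubicin or the combination lie above 0, and those of HL60 with cytarabine or the combination below it.

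RPL13A, a large-subunit protein that also takes part in transcript-selective translational silencing, had the largest rise with daunorubicin in MOLM13. It was at 3764, 4113 and 4161 CPM in DMSO, 6248, 6119 and 5938 CPM with daunorubicin and 5677, 5773 and 5775 CPM with the combination, without overlap (log2 fold change 0.60 ± 0.05, adjusted p = 9.77e-06 for daunorubicin and 0.52 ± 0.05 for the combination). With cytarabine it was at 4322, 4054 and 4244 CPM and overlapped DMSO. RPS19, the small-subunit protein most often mutated in Diamond-Blackfan anemia, was at 1256, 1773 and 1401 CPM in DMSO and 2062, 2669 and 1993 CPM with daunorubicin (log2 fold change 0.60 ± 0.17, adjusted p = 0.0111), a wider spread than for RPL13A. RPL28 was at 980.1, 1089 and 991 CPM in DMSO, 1429, 1562 and 1431 CPM with daunorubicin (log2 fold change 0.53 ± 0.06, adjusted p = 3.68e-05) and 1356, 1495 and 1453 CPM with the combination. These are the TOP starts shown first above. Of the 41 core genes with such a start, 30 rose with daunorubicin in MOLM13 (median 0.27). Of the 20 with another annotated start 14 rose (median 0.24), and of all genes 26.9% rose. In HL60 with the combination, 7 of the 41 and 11 of the 20 fell, with medians of -0.18 and -0.29, against 25.3% of all genes. None of these differences between the kinds of start was tested.

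RPS26 was the single core gene that fell in MOLM13 with daunorubicin and with the combination, while 57 and 50 others rose. It was at 296, 311 and 274 CPM in DMSO, 182, 207 and 172 CPM with cytarabine, 198, 230.3 and 199.6 CPM with daunorubicin and 208, 219 and 176 CPM with the combination. The treated libraries lay below all DMSO libraries in each case, with log2 fold changes of -0.65 ± 0.10, -0.49 ± 0.10 and -0.55 ± 0.10 and adjusted p-values of 0.000575, 0.00161 and 0.000774. These falls and those of HL60 kept their direction and call under all 24 alternatives tried. Besides RPS26, the largest falls with cytarabine in MOLM13 were those of RPL17 (-0.25 ± 0.04, adjusted p = 0.00147) and RPL38 (-0.25 ± 0.07, adjusted p = 0.016), a protein linked to selective translation of homeobox mRNAs in the embryo. RPL17 was at 858, 859 and 891 CPM in DMSO and 744, 735 and 712 CPM with cytarabine, and RPL38 at 304, 317 and 291 and 269, 259 and 239 CPM.

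In OCIAML3 with all 12 libraries, no core gene and no gene at all passed FDR under 0.05 by edgeR for any treatment (0% of 16650 genes). At an unadjusted p under 0.05, 0, 1 and 7 core genes passed for cytarabine, daunorubicin and the combination, against 1.53%, 30.5% and 23.3% of all genes. By DESeq2, 3, 1666 and 17 genes in all passed, among them 2 of the ribosomal protein genes, both with daunorubicin. Without the 2 libraries that stood apart, 23 core genes fell and 0 rose with the combination (median -0.16), against 21.6% lower and 20.1% higher of 16891 genes. With daunorubicin, RPS19 rose (0.22 ± 0.08, adjusted p = 0.0484) and RPS15 fell (-0.19 ± 0.06, adjusted p = 0.0465), against 15.3% and 16% of all genes. With cytarabine none passed, and no gene of the 16891 did. The largest fall with the combination was again that of RPS26, at 257, 275 and 278 CPM in DMSO and 186, 219 and 293 CPM with the combination, the last of which is the library left out (-0.42 ± 0.11, adjusted p = 0.0122). It was followed by RPL35 (-0.36 ± 0.08) and RPSA, the laminin receptor protein (-0.35 ± 0.09).

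The difference between the lines was tested directly, as the treatment effect in MOLM13 minus that in HL60. With the combination it passed for 38 core genes, all higher in MOLM13, with a median of 0.33, against 10.1% higher and 17.3% lower of 19053 genes (median -0.06). They included 11 small-subunit and 27 large-subunit genes. The count was 19 without HL60 DMSO replicate 1 and 22 without HL60 combination replicate 2. With daunorubicin it passed for 6, among them RPL5, RPL10, RPL4, RPL12 and RPL13A, all higher in MOLM13, against 6.69% of all genes, and the count was 0 without HL60 DMSO replicate 1, 1 without MOLM13 DMSO replicate 1, 3 without HL60 daunorubicin replicate 1 or MOLM13 daunorubicin replicate 1 or 2, and 12 without HL60 DMSO replicate 2. With cytarabine it passed for no core gene by edgeR, against 2.65% higher and 5.73% lower of all genes. At this contrast 3 of 76 core genes had an unadjusted p under 0.05, against 21.6% of all genes, and DESeq2 also called 0. The largest core difference with the combination was that of RPL9 (0.87 ± 0.18, adjusted p = 0.00039), followed by RPL5 (0.65 ± 0.10, adjusted p = 2.30e-05) and RPL13A (0.64 ± 0.12, adjusted p = 0.000109). RPS26 did not differ at this threshold (0.52 ± 0.20, adjusted p = 0.0548).

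**Figure D4:**
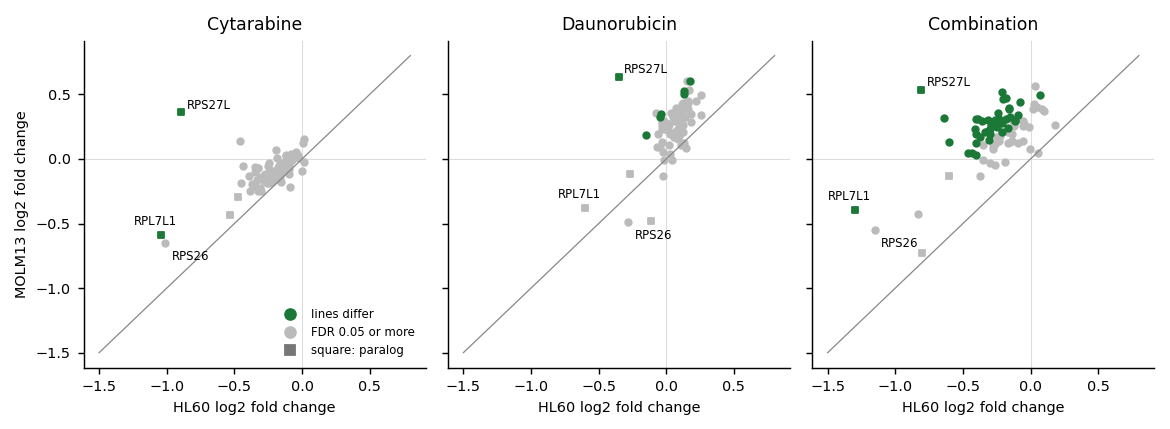
Log2 fold change against DMSO in HL60 (horizontal) and MOLM13 (vertical) for each core gene (circles) and paralog (squares), with the line of equal effect. Green marks genes whose effect differed between the lines at FDR under 0.05, which are 38 core genes and 2 paralogs with the combination.

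RPS27L, a paralog of RPS27, moved in opposite directions in HL60 and MOLM13 with the combination. In HL60 it was at 41.1, 29.2 and 27.0 CPM in DMSO, 18.9, 15.2 and 18.3 CPM with cytarabine, 25.8, 21.2 and 29.4 CPM with daunorubicin and 20.9, 16.2 and 18.6 CPM with the combination. All libraries with cytarabine or the combination lay below all DMSO libraries (log2 fold change -0.89 ± 0.18, adjusted p = 0.00113 and log2 fold change -0.81 ± 0.18, adjusted p = 0.00163), and those with daunorubicin overlapped them (-0.35 ± 0.17, adjusted p = 0.168). In MOLM13 it was at 95.5, 143 and 101 CPM in DMSO, 138, 162 and 134 CPM with cytarabine, 181, 178 and 168 CPM with daunorubicin and 164, 179 and 148 CPM with the combination. The libraries with daunorubicin or the combination lay above all DMSO libraries (log2 fold change 0.64 ± 0.14, adjusted p = 0.00241 and log2 fold change 0.53 ± 0.14, adjusted p = 0.00676), and those with cytarabine did not (0.36 ± 0.14, adjusted p = 0.0615). The difference in effect between the lines was 1.20 ± 0.24, adjusted p = 0.00189 for cytarabine, 0.93 ± 0.24, adjusted p = 0.00667 for daunorubicin and 1.25 ± 0.24, adjusted p = 0.000266 for the combination, and it passed under all 20 alternatives tried for each. In OCIAML3 it was at 102, 103 and 99.1 CPM in DMSO, 120.4, 105 and 151 CPM with cytarabine, 168, 159 and 157 CPM with daunorubicin and 143, 161 and 101 CPM with the combination, the last cytarabine and combination values being those of the 2 libraries that stood apart. It rose with daunorubicin and the combination without them (0.67 ± 0.07 and 0.59 ± 0.07, adjusted p = 0.000578 and 0.000623).

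MDM2, a ubiquitin ligase, and CDKN1A are given beside these values. MDM2 had log2 fold changes with the combination of -0.10 ± 0.10 in HL60 (adjusted p = 0.419) and 2.25 ± 0.19 in MOLM13 (adjusted p = 1.14e-05), from 93.8, 101 and 111 to 90.4, 91.0 and 103 CPM and from 133, 194 and 149 to 539.7, 853 and 877 CPM. CDKN1A rose in both lines, from 0.193, 0.103 and 0.0569 to 57.6, 79.7 and 45.3 TPM in HL60 and from 72.8, 182 and 99.8 to 858, 992 and 1182 TPM in MOLM13 (adjusted p = 1.07e-07 and 2.05e-05). Their part in the changes of RPS27L was not tested. Among the 10244 genes compared, which averaged 5 CPM or more, the 5 whose log2 CPM followed RPS27L most closely over the 12 group means were ZMAT3 (Spearman's rho 0.993), TMEM30A, ZNF337, VPS13B and USP15 (each 0.986). The group means share lines and DMSO libraries, and much of such a rank order is the order of the lines, so these are descriptions.

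RPL7L1 fell in every HL60 and MOLM13 comparison. In HL60 it was at 565, 523 and 531 CPM in DMSO, 244, 294 and 248 CPM with cytarabine, 333, 353 and 381 CPM with daunorubicin and 212, 212 and 233 CPM with the combination. All treated libraries lay below all DMSO libraries, with log2 fold changes of -1.04 ± 0.10, -0.60 ± 0.10 and -1.30 ± 0.10 (adjusted p = 6.85e-06, 0.00104 and 7.58e-07). In MOLM13 it was at 532, 512 and 523 CPM in DMSO, 351, 334 and 358 CPM with cytarabine, 392, 423 and 386 CPM with daunorubicin and 388, 416 and 387 CPM with the combination, again without overlap (-0.59 ± 0.06, -0.38 ± 0.05 and -0.40 ± 0.05). With the combination the fall was larger in HL60 than in MOLM13 by 0.82 ± 0.12, adjusted p = 1.08e-05, and with cytarabine by 0.40 ± 0.12, adjusted p = 0.0361, a call that 9 of 20 alternatives kept. In OCIAML3 it was at 387, 359 and 361 CPM in DMSO, 264, 279 and 309 CPM with daunorubicin and 256, 266 and 346 CPM with the combination, and it fell in both without the 2 libraries (-0.38 ± 0.07 and -0.50 ± 0.07).

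RPL26L1, which differs from RPL26 by a few residues, was at 55.0, 39.3 and 42.7 CPM in HL60 DMSO, 31.3, 27.3 and 36.3 CPM with cytarabine (log2 fold change -0.53 ± 0.16, adjusted p = 0.0173) and 30.9, 20.3 and 27.6 CPM with the combination (log2 fold change -0.80 ± 0.16, adjusted p = 0.0011). In MOLM13 it was at 30.1, 25.8 and 28.5 CPM in DMSO, 21.4, 21.9 and 19.4 CPM with cytarabine, 18.7, 21.6 and 20.2 CPM with daunorubicin and 18.7, 17.4 and 15.03 CPM with the combination, and all treated libraries lay below DMSO (-0.43 ± 0.10, -0.48 ± 0.10 and -0.72 ± 0.10). Its parent RPL26 rose in MOLM13 with daunorubicin (log2 fold change 0.32 ± 0.05, adjusted p = 0.000182), so gene and paralog moved in opposite directions there. The same was so of RPL7 (log2 fold change 0.30 ± 0.05, adjusted p = 0.000441) and RPL7L1. The parent RPS27 rose as RPS27L did (log2 fold change 0.42 ± 0.08, adjusted p = 0.00098).

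RPL22L1, the paralog of RPL22 whose mRNA the RPL22 protein is known to repress, differed between the lines more than with treatment. It was at 29.0, 23.6 and 21.9 CPM in HL60 DMSO and 119, 133 and 120.2 CPM in MOLM13 DMSO, a log2 difference of 2.43 ± 0.15, adjusted p = 3.06e-14. It fell in HL60 with the combination, to 20.4, 12.7 and 15.8 CPM (log2 fold change -0.61 ± 0.20, adjusted p = 0.0182), and in MOLM13 with cytarabine, to 98.5, 101 and 104 CPM (log2 fold change -0.29 ± 0.08, adjusted p = 0.0176), and passed in no other comparison. Its transcripts were of different classes in the lines. Those annotated for nonsense-mediated decay took 48.5%, 49.9% and 51.9% of its counts in the HL60 DMSO libraries, 8.65%, 6.996% and 10.1% in MOLM13 and 26.9%, 23.0% and 17.6% in OCIAML3. In HL60 their share was 64.6%, 64.9% and 69.6% with cytarabine, 55.5%, 55.6% and 45.3% after daunorubicin and 72.9%, 78.4% and 68.9% with the combination, so that all libraries with cytarabine or the combination lay above all DMSO libraries. In MOLM13 it stayed between 4.86% and 10.1% in all 12 libraries. Most of these counts were on transcript RPL22L1-204, with 315, 303 and 313 counts in the HL60 DMSO libraries and 517, 343 and 347 with the combination, while the protein-coding RPL22L1-201 had 127, 107 and 92 in DMSO and 66, 37 and 48 with the combination. The other protein-coding transcripts overlapped in RPL22L1-202, with 75, 175 and 132 counts in DMSO and 91, 71 and 97 with the combination, and not in RPL22L1-203, with 189, 59 and 83 and 49, 0 and 11. None of these transcript counts is scaled to library size, so they do not show that RPL22L1-204 rose. For the whole gene, 760 counts in DMSO replicate 1 were 29.0 CPM, and 763 in combination replicate 1 were 20.4 CPM. The split between overlapping transcripts is an estimate of Salmon from those few reads, no test was run on it, and 3 libraries against 3 cannot go below an exact permutation p of 0.10. The log2 fold change of RPL22 itself with the combination was -0.21 ± 0.10 in HL60, which did not pass (adjusted p = 0.0776), and rose by 0.21 ± 0.07 in MOLM13 (adjusted p = 0.0254).

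RPL39L, the paralog of RPL39 that is best known from male germ cells and some cancers, was listed at 0 counts in all 12 HL60 libraries. In DMSO it was at 21.7, 24.6 and 24.0 TPM in MOLM13 and 29.3, 32.3 and 34.9 TPM in OCIAML3. A floor of 3 counts was set in the HL60 DMSO library with the smallest scaled size. Against it, MOLM13 was at least 93.8-fold and OCIAML3 at least 103-fold higher in mean CPM, here scaled by TMM over all 36 libraries. In MOLM13 it was at 9.17, 10.6 and 10.1 CPM in DMSO, 10.4, 11.6 and 10.2 CPM with cytarabine, 4.94, 2.02 and 6.75 CPM with daunorubicin and 6.98, 1.87 and 2.24 CPM with the combination. The libraries with daunorubicin or the combination lay below all DMSO libraries, and the difference passed for the combination (log2 fold change -1.42 ± 0.47, adjusted p = 0.0241) but not for daunorubicin (-1.13 ± 0.47, adjusted p = 0.0611), with a wide spread between the treated libraries.

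**Figure D5:**
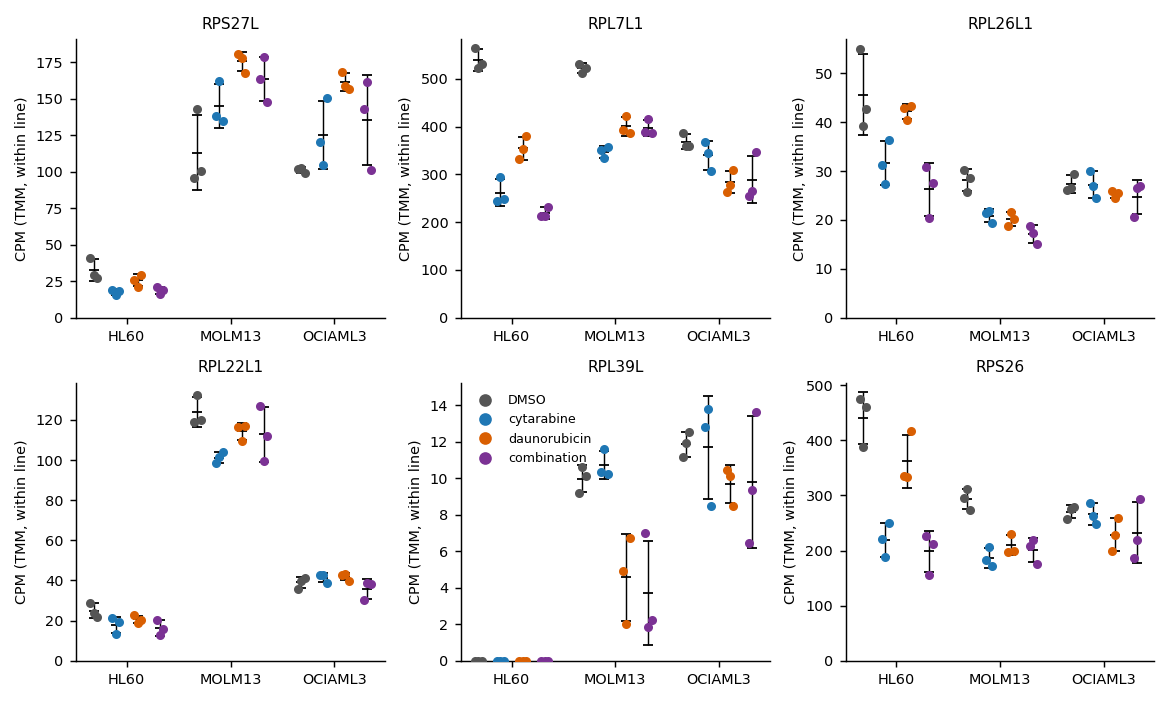
CPM of 5 paralogs and of RPS26 in each library, scaled by TMM within each line, with the mean and SD of 3 libraries per group. RPS27L lies below DMSO in HL60 and above it in MOLM13 with the combination, RPL7L1 and RPS26 lie below DMSO in both, and RPL39L is at 0 in HL60.

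By role, the 2 partners of 5S rRNA behaved differently in HL60. RPL5 fell with cytarabine and the combination as given above, and RPL11 was at 1273, 998 and 1169 CPM in DMSO and 1219.9, 991 and 1106 CPM with the combination (-0.05 ± 0.11, adjusted p = 0.709). Both rose in MOLM13 with daunorubicin (RPL5 0.19 ± 0.04 and RPL11 0.30 ± 0.05, adjusted p = 0.00407 and 0.000309). A list of 6 core genes mutated or deleted in leukemia or inherited marrow failure held RPL5, RPL10, RPL11, RPL22, RPS14 and RPS19. All 6 rose in MOLM13 with daunorubicin and with the combination, as most core genes did. In HL60 2 of them fell with the combination (RPL5 and RPS14) and none rose. The list leaves out RPS26, also mutated in Diamond-Blackfan anemia. RPS26 fell in MOLM13 with daunorubicin and the combination (-0.49 and -0.55) and in HL60 with the combination (-1.15). Of all genes 26.9% and 27% rose in these MOLM13 comparisons and 25.3% fell in that of HL60. With the combination in MOLM13 the call was lost under 13 of 24 alternatives for RPL5, 18 for RPS14, 8 for RPL22 and 3 for RPS19. RPS14, lost in the 5q- syndrome, was at 2215, 1664 and 1905 CPM in HL60 DMSO and 1782, 1391 and 1505 CPM with the combination (log2 fold change -0.31 ± 0.12, adjusted p = 0.0466), a call lost under 16 of 24 alternatives. Of 4 genes often used as references in PCR (RPLP0, RPL13A, RPS18 and RPL30), all 4 rose in MOLM13 with daunorubicin and with the combination, with a median log2 fold change of 0.36 and 0.34, and none passed in HL60. Of the stalk proteins that recruit translation factors (RPLP0, RPLP1 and RPLP2), 2 of 3 rose in MOLM13 with daunorubicin and with the combination. RPS6, the substrate of S6 kinase, was at 1855, 1926 and 1969 CPM in MOLM13 DMSO and 2509, 2476 and 2378 CPM with daunorubicin (log2 fold change 0.36 ± 0.05, adjusted p = 0.000239). RPS27A, which is made as a fusion with ubiquitin, was among the genes that did not pass there (0.13 ± 0.05, adjusted p = 0.0593).

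Genes of related pathways were counted from lists, to be read against all genes tested. Of those, 26.9% rose and 25.7% fell in MOLM13 with daunorubicin, and 27% and 26% with the combination. In HL60 23.6% rose and 22% fell with cytarabine, and 28.1% and 25.3% with the combination. Of 76 tested genes of the mitochondrial ribosome, 63 fell and 0 rose in MOLM13 with daunorubicin (median -0.47), where 57 cytosolic core genes rose, and 61 fell with the combination (median -0.48). In HL60, 53 of them fell with cytarabine and 59 with the combination, with 1 higher in each (medians -0.43 and -0.58). Of 17 chaperones and importers of ribosomal proteins, such as RRS1 and IPO7, 15 fell with the combination in HL60 and 14 in MOLM13, and none rose in either (medians -0.94 and -0.42). Of 25 other genes with TOP mRNAs, mostly translation factors, 23 were tested. In MOLM13, 13 of them rose and 3 fell with daunorubicin (median 0.20), and in HL60 1 rose and 15 fell with the combination (median -0.44). Of 24 regulators of TOP mRNAs and S6 kinase 22 were tested, of which 6 rose and 12 fell with the combination in MOLM13 and 2 rose and 10 fell in HL60. Of 19 genes of ribosome rescue and quality control, 6 rose and 9 fell in MOLM13 and 1 rose and 11 fell in HL60 with the combination. The shares of the last 2 lists that rose in MOLM13 were near that of all genes.

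Departure of the combination from the summed effects of each drug alone was tested within each line on the log2 scale. In HL60 and OCIAML3 no core gene and no paralog passed by edgeR, against 1.24% higher and 3.9% lower of all genes in HL60 and 0% in OCIAML3. At an unadjusted p under 0.05, 1 and 0 core genes passed in these lines, against 20.8% and 2.53% of all genes, and DESeq2 called 0 core genes in both. In MOLM13, RPS26 (0.59 ± 0.14, adjusted p = 0.0145) and RPL17 (0.21 ± 0.06, adjusted p = 0.0401) of the core and RPL7L1 (0.58 ± 0.08, adjusted p = 0.00137) were higher than the sum, against 9.99% higher and 8.85% lower of all genes. None of the 3 passed 2-fold, against 5.37% of all genes. For RPS26 the combination left 208, 219 and 176 CPM, in the same range as either drug alone. The call of RPL17 was lost under 14 of 24 alternatives.

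On the level of transcripts, those annotated as protein-coding carried most core counts. Retained-intron transcripts took 5.09%, 5.52% and 5.31% of the core counts in HL60 DMSO and 4.30%, 4.50% and 4.28% with the combination, without overlap, and 5.11% ± 0.0955 and 4.84% ± 0.0343 in MOLM13. Transcripts annotated for nonsense-mediated decay took 1.10% ± 0.0779 in HL60 DMSO and 1.28% ± 0.0551 with the combination (SD, n = 3). The counts of some genes cannot be assigned with certainty. Of 1472 pseudogenes named after these genes, RPL23AP42, RPS2P5 and RPL36AP37 took most of the pseudogene counts. Pseudogenes took 37.6% of the counts of RPL23A and its copies together, 15.5% for RPL36A and 3.40% for RPS2, and 1% or less for 79 others. RPS9 varied widely between replicates and was called in no treatment comparison, with 298, 184 and 11.7 TPM in the HL60 cytarabine libraries and 48.5, 226 and 247 TPM in the MOLM13 DMSO libraries.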

How the data were processed

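RNA was sequenced as paired-end reads from 36 libraries. The authors quantified them with Salmon 1.8.0 against the GRCh38 Ensembl transcriptome with the genome as decoy, after quality control with FastQC 0.11.9, and the deposited files hold, per transcript, estimated counts and TPM. For the Ensembl release and the RNA selection step, the entry is: not given in the sources used here. Gene names came from GENCODE release 44, which matched 235378 of 252199 transcripts. Transcripts without a match took 3.99% to 4.52% of a library's counts and do not enter the gene sums.

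Gene sums of the estimated counts were made whole numbers by rounding, and were tested with edgeR 4.0.16 in R 4.3.3 (TMM scaling, filterByExpr with a minimum count of 10 and a total of 15, quasi-likelihood F test, Benjamini-Hochberg adjustment over all genes kept, FDR under 0.05) in the 12 libraries of each line. Differences between lines were tested in 1 fit of all 36 libraries. Of the 83 genes, 80 were kept in HL60 and 81 in MOLM13 and OCIAML3. Values in CPM are scaled by TMM within a line. Standard errors were computed as the log2 fold change over the square root of F. The procedure was tested on simulated data. The members and gene lists were chosen with earlier results of these data known. Core genes with the 3 largest rises and falls at FDR under 0.05 in each HL60 and MOLM13 comparison, all paralogs kept, and genes of the lists by role were named, and the OCIAML3 genes were named after their values were seen. RPL36AL was listed as a paralog but does not match the symbol pattern and was left out. Same-numbered libraries deviated together in HL60 (correlation of deviations 0.217 to 0.416 in 6 of 6 pairs of groups), and in 2 of 6 in MOLM13 and 3 of 6 in OCIAML3. No libraries agreed within sampling noise. Alternatives were DESeq2 1.42.0, other scalings, filters and fits, the replicate block, and leaving out each library. Some genes are not reported here.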

Additional observations from a re-analysis of the deposited data

Results flagged for a closer look

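The effect of treatment differed between MOLM13 and HL60 by an interaction test (edgeR, FDR under 0.05, all 36 libraries) for 38 of 76 core genes with the combination, against 10.1% of all genes higher, and for 6 with daunorubicin, a share near the 6.69% of all genes higher, and all of these core genes were higher in MOLM13. Without HL60 DMSO replicate 1 the counts were 19 and 0. With the combination the log2 difference of effects was 0.87 for RPL9, 0.65 for RPL5, 0.64 for RPL13A, 0.62 for RPL4, 0.58 for RPL10, 0.57 for RPL12, 0.48 for RPL26, 0.43 for RPL3 and RPL17, 0.41 for RPL7, 0.37 for RPS14, 0.35 for RPS6 and 0.33 for RPL28 and RPL22. With daunorubicin it was 0.37 for RPL13A, 0.34 for RPL12, 0.32 for RPL4 and RPL10 and 0.28 for RPL5. Among the paralogs it was 1.20, 0.93 and 1.25 for RPS27L with cytarabine, daunorubicin and the combination, and 0.40 and 0.82 for RPL7L1 with cytarabine and the combination. Groups of 3 libraries were not searched for outlying values.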

How the results depend on the processing

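Counts here are of core genes and paralogs together. Of 180 results of named genes called in HL60, in MOLM13 or between lines and computed again, 54 lost the call under 1 or more alternatives and 0 changed direction. Treatment results of single OCIAML3 genes were not. With the replicate number as a block, the count became 43 (from 16) with cytarabine, 46 (from 27) with the combination and 5 (from 2) with daunorubicin in HL60, 7 (from 3) for the combination against the sum in MOLM13, and 17 (from 7) for the difference in daunorubicin effect. Same-numbered libraries deviated together in all 6 pairs of groups in HL60 alone, and in 2 of 6 in MOLM13 and 3 of 6 in OCIAML3. With upper quartile scaling it was 4 and 10 with cytarabine and the combination in HL60 and 8 (from 21) with cytarabine in MOLM13. With RLE scaling it was 1 with daunorubicin in HL60 and 12 for the difference in daunorubicin effect, and with DESeq2 17 for the latter and 2 (from 0) with daunorubicin in OCIAML3. With all 36 libraries in 1 fit it was 36 (from 53) and 4 with the combination and cytarabine in MOLM13, 1 for the combination against the sum in both HL60 and MOLM13, and 2 with daunorubicin in OCIAML3. Without a filter on low counts it was 11 with cytarabine in MOLM13, and 1 with daunorubicin and 1 for the sum in HL60. The newer quasi-likelihood and the transcript length offset each gave 1 with daunorubicin in HL60, and the offset gave 1 (from 2) for the difference in cytarabine effect. Requiring also a 2-fold change left 2, 0 and 2 with cytarabine, daunorubicin and the combination in HL60, 0, 0 and 1 in MOLM13, and 0 for the sum. Without the 2 OCIAML3 libraries, a choice made after seeing the data, it was 4 with daunorubicin and 26 with the combination in OCIAML3. The cause of these differences was not tested.

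Leaving out 1 library at a time gave 8 to 27, 1 to 2 and 12 to 40 with cytarabine, daunorubicin and the combination in HL60, 9 to 24, 48 to 61 and 44 to 54 in MOLM13, and 0 to 0, 0 to 3 and 0 to 19 in OCIAML3. For the combination against the sum it gave 0 to 0, 2 to 4 and 0 to 0 in HL60, MOLM13 and OCIAML3. For the difference in effect it gave 1 to 3, 2 to 13 and 21 to 57 with cytarabine, daunorubicin and the combination. For the DMSO levels it gave 49 to 55 between MOLM13 and HL60, 70 to 73 between OCIAML3 and HL60 and 70 to 73 between OCIAML3 and MOLM13. The share of counts in DMSO was 8.401% to 9.397% in HL60, 8.593% to 8.908% in MOLM13 and 5.891% to 5.916% in OCIAML3. Over all deposited transcript counts that share was 8.357% in MOLM13 and 5.66% in OCIAML3, and with pseudogenes added 5.942% in OCIAML3. With 3 libraries a group and fold changes mostly under 1.5, single libraries decide many calls in HL60. Paralogs below about 30 CPM rest on fewer reads than most core genes, such as 51 counts of RPL39L in MOLM13 daunorubicin replicate 2.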
